A study of Danio rerio with 20 samples.

Results

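Haemoglobin and erythrocyte genes were followed through the skin of zebrafish (Danio rerio) of different age and exercise. A gene belonged to the set where its zebrafish symbol, case ignored, was one of hbaa1, hbaa2, hbba1, hbba2, ba1, ba1l, alas2, slc4a1a and hemgn. Of these 9 symbols, 4 matched a row among the 32105 genes counted: hbaa1 (ENSDARG00000097011), hbaa2 (ENSDARG00000069735), alas2 (ENSDARG00000038643) and hemgn (ENSDARG00000096667). All 4 passed the filter on low counts. The symbols hbba1, hbba2, ba1, ba1l and slc4a1a matched no row through the name table used here.

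Skin RNA came from male fish of the strain labelled AB JxTu, in 20 libraries of whole skin RNA. The 4 groups of 5 libraries were 1-year fish with no perturbation, 1-year fish exercised in a swim tunnel, 3-year fish with no perturbation and 3-year fish exercised in a swim tunnel. In a swim tunnel water flows past the fish, which has to swim to hold its place. How long the fish swam, and whether a library holds 1 fish or several, is not given in the sources used here, and where samples came from shared stock the p-values measure the spread between these samples.

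Haemoglobin of adult fish is a tetramer of alpha and beta globin chains, each holding a haem group, and zebrafish carry its genes in a cluster in which alpha and beta genes are interleaved. Fish red cells keep their nucleus in the circulation, so that blood left in a tissue contributes red cell transcripts to a tissue library. alas2 encodes the erythroid form of 5-aminolevulinate synthase, the first enzyme of haem synthesis. hemgn encodes hemogen, a nuclear protein of blood-forming cells that in mammals acts in red cell development, and slc4a1a encodes the anion exchanger of the red cell membrane, band 3.

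Part of the unmatched set may stand in the counts under other names. The name table gives the symbol HBE1, a human beta-type globin, to 5 rows and SLC4A1 to 2 rows, and the RefSeq gene table for assembly GRCz12tu gives si:ch211-5k11.8 the synonym hbaa1.2. In that table the gene order is hbaa2, hbba2, ba1l, hbaa1, hbba1 and si:ch211-5k11.8, with hbba2 inside the span of hbaa2. RefSeq lists a separate slc4a1b, and embryonic beta globins could carry the HBE1 symbol too, so none of these rows could be assigned to a member. These 8 rows were added after the name table and their values had been seen. They are called related rows below and are never counted as members. The 5 that passed the filter were HBE1 ENSDARG00000089087, HBE1 ENSDARG00000069734, HBE1 ENSDARG00000097238, si:ch211-5k11.8 (ENSDARG00000079078) and SLC4A1 ENSDARG00000012881. The other 2 HBE1 rows held 5 counts (ENSDARG00000045143) and 1 count (ENSDARG00000087390) over all 20 libraries, and the second SLC4A1 row (ENSDARG00000024560) held 16. Globin genes of one type may be near-identical in sequence, which was not checked here, and hbba2 and hbaa2 overlap. The library kit does not mark strand, so reads may have been split between these rows or lost. The level of each single globin row is uncertain for that reason.

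Total counts per library ran from 29280697 to 52437698. The labelled tissue was checked with 13 skin keratinocyte markers, all of them detected, whose summed level was 58955 to 119119 CPM in the 20 libraries. CPM are read counts scaled to a common library size, here with TMM factors. Unexercised 1-year replicate 1 is labelled skin but has the word muscle in the name of its count column. Its sum of 21 fast skeletal muscle rows was 7698 CPM, within the 2758 to 20541 CPM of all libraries.

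The erythroid members varied strongly between libraries. Over the 20 libraries the highest value was 49.98 times the lowest for hbaa2, 16.5 times for hbaa1, 11.6 times for alas2 and 3.36 times for hemgn. For all 4, the highest library was replicate 2 of the exercised 1-year fish. The pooled SD within groups, on the log2(CPM + 1) scale, was 1.01 for hbaa1, 1.03 for hbaa2, 0.95 for alas2 and 0.45 for hemgn, against a median of 0.25 over the 20788 genes tested. Of these genes, 98.3% had a lower SD than hbaa1 and 84.2% a lower SD than hemgn. The part of the variance that lay within groups was 65.6% for hbaa1, 67.7% for hbaa2, 66.9% for alas2 and 86.9% for hemgn, against a median of 66.0% over all genes. In whole tissue, fewer red cells and less RNA per red cell cannot be told apart.

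The alpha globin hbaa1 had 12.2, 42.7, 16.3, 26.6 and 78.1 CPM in the unexercised 1-year libraries, in the order of replicates 1 to 5. It had 67.1, 181.6, 60.5, 106.9 and 75.1 CPM in the exercised 1-year libraries. All unexercised 1-year libraries but replicate 5 lay below every exercised one, and that replicate lay above 3 of the 5. In 3-year fish hbaa1 had 11.03, 114.1, 20.1, 137.2 and 28.0 CPM without exercise and 105.5, 88.3, 62.8, 46.7 and 77.9 CPM with it. The unexercised 3-year libraries split, with replicates 2 and 4 above every exercised 3-year library and the other 3 below every one.

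The second alpha globin, hbaa2, was the lower of the pair per length in every library. It had 1.27, 6.39, 3.69, 2.79 and 15.7 CPM in unexercised and 6.40, 63.6, 13.8, 10.5 and 10.04 CPM in exercised 1-year libraries. Replicate 2 of the exercised fish stood far above the other 4, and the groups overlapped through replicate 5 of the unexercised fish. In 3-year libraries it had 2.44, 4.14, 4.09, 18.5 and 2.37 CPM without exercise and 10.6, 11.1, 16.3, 3.61 and 12.2 CPM with exercise. Only replicate 4 was high among the unexercised and only replicate 4 was low among the exercised 3-year libraries.

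For the haem enzyme gene alas2 the values were 3.41, 11.3, 4.88, 5.65 and 29.6 CPM in unexercised and 19.8, 39.7, 20.1, 30.4 and 24.7 CPM in exercised 1-year libraries. Again a single unexercised library, replicate 5, reached into the exercised range. At 3 years alas2 had 3.87, 27.7, 4.33, 32.7 and 4.32 CPM without exercise and 16.3, 17.9, 9.39, 8.42 and 12.1 CPM with it. Here too the unexercised replicates 2 and 4 lay above and the other 3 below all exercised libraries. The exercised 3-year libraries all lay below the exercised 1-year libraries. Of all genes tested, 9.13% had no overlap between these 2 groups.

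hemgn moved over a narrower range. It had 4.44, 6.36, 5.45, 4.93 and 10.2 CPM in unexercised and 8.44, 13.9, 7.79, 6.30 and 7.16 CPM in exercised 1-year libraries. Unexercised replicate 5 lay above 4 of the 5 exercised libraries and unexercised replicate 2 just above exercised replicate 4, while the other 3 unexercised libraries lay below all exercised ones. At 3 years it had 4.12, 9.92, 4.23, 13.1 and 4.71 CPM without exercise and 7.81, 7.81, 6.02, 6.79 and 5.95 CPM with exercise. As for hbaa1 and alas2, unexercised replicates 2 and 4 lay above all exercised 3-year libraries and the other 3 below all of them.

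**Figure D1:**
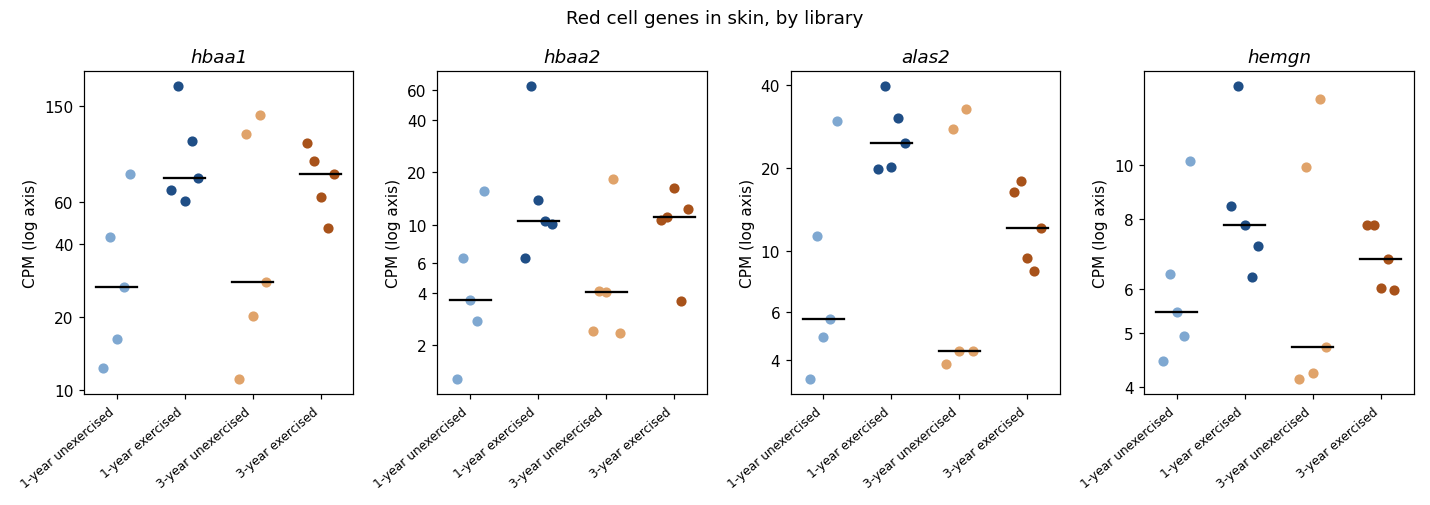
CPM of hbaa1, hbaa2, alas2 and hemgn on a log axis in each of the 20 libraries, 5 per group, with replicates 1 to 5 from left to right and a bar at the group median. In unexercised 3-year fish 2 libraries (hbaa1 at 114.1 and 137.2 CPM) lie apart from the other 3 (11.03 to 28.0 CPM).

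By group mean, all 4 members were highest in exercised 1-year fish. hbaa1 had 35.2 ± 26.7 CPM in unexercised 1-year, 98.2 ± 49.9 in exercised 1-year, 62.1 ± 58.9 in unexercised 3-year and 76.2 ± 22.7 CPM in exercised 3-year fish (SD, n = 5 each). hbaa2 had 5.96 ± 5.74, 20.9 ± 24.0, 6.30 ± 6.85 and 10.8 ± 4.58 CPM in the same order. alas2 had 10.97 ± 10.9, 26.9 ± 8.35, 14.6 ± 14.4 and 12.8 ± 4.18 CPM, and hemgn had 6.27 ± 2.28, 8.71 ± 2.99, 7.22 ± 4.09 and 6.88 ± 0.91 CPM. For neighbours in the order of means the difference was smaller than the larger of the 2 SDs in each of the 4 members.

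Per kilobase of the gene length implied by the deposited values, hbaa1 had a median of 71.9 CPM over the 20 libraries, hbaa2 14.6, alas2 4.52 and hemgn 2.69 CPM. Among the related rows the median was 158.4 CPM per kilobase for si:ch211-5k11.8, 127.8 for HBE1 ENSDARG00000089087, 33.5 for HBE1 ENSDARG00000069734 and 27.7 for HBE1 ENSDARG00000097238. SLC4A1 ENSDARG00000012881 had 2.91 CPM per kilobase. The most abundant globin rows per length were thus related rows and not members.

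The first comparison was exercise at 1 year, where 15.5% of the 20788 genes tested were called at a Benjamini-Hochberg adjusted p below 0.05, 7.37% higher and 8.15% lower with exercise. edgeR's quasi-likelihood test called 0 of the 4 members, while 2 had an unadjusted p below 0.05. DESeq2 called 2 and limma voom 1. The shares of all genes called, here and below, are those of edgeR at an adjusted p below 0.05. They are no background for other tools, other fits or unadjusted p. The values of the 2 groups overlapped in all 4 members, while 12.8% of all genes had no overlap. The fitted log2 fold change of hbaa1 was 1.48 (SE 0.61, edgeR adjusted p = 0.107) and that of hbaa2 was 1.81 (SE 0.74, edgeR adjusted p = 0.107). alas2 had 1.29 (SE 0.63, edgeR adjusted p = 0.175) and hemgn 0.48 (SE 0.32, edgeR adjusted p = 0.333). All 4 were positive, and their median was 1.39 against 0.01 over all genes tested. The 5 related rows tested had 1.34 to 1.83, and edgeR called none of them, with adjusted p from 0.0835 to 0.131. DESeq2 and limma voom each called 2 of them, SLC4A1 ENSDARG00000012881 and HBE1 ENSDARG00000069734.

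The calls at 1 year depended on single libraries and on the tool. Without replicate 5 of the unexercised 1-year fish, edgeR called 3 of the 4 members: hbaa1 at 2.00 (adjusted p = 0.0385), hbaa2 at 2.56 (adjusted p = 0.0309) and alas2 at 2.09 (adjusted p = 0.0272). hemgn stood at 0.72 (adjusted p = 0.138). All 5 related rows passed in that fit, at 1.90 to 2.55. The count of all genes called also changed when a library was left out. These calls are therefore not to be set against the 15.5% called with all libraries. Leaving out replicate 2 of the exercised 1-year fish instead took hbaa2 to 0.75 (adjusted p = 0.526), hbaa1 to 1.12 and hemgn to 0.24. In no other of the 20 fits that each left out 1 library was a member called. Among the other tools, DESeq2 called hbaa1 (1.49, adjusted p = 0.0441) and hbaa2 (1.81, adjusted p = 0.0377), and limma voom with quality weights called alas2 (1.61, adjusted p = 0.0411).

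At 3 years 1.32% of genes were called for exercise, and 0 of the 4 members by edgeR, DESeq2 or limma voom, with no unadjusted edgeR p below 0.05. The groups overlapped in all 4, where 4.32% of genes had no overlap. hbaa1 had a log2 fold change of 0.30 (SE 0.60) and hbaa2 of 0.78 (SE 0.73). alas2 had -0.18 (SE 0.62) and hemgn -0.07 (SE 0.32). The median of the 4 was 0.11, against 0.01 over all genes. The sign of alas2 and hemgn was not stable. Without replicate 4 of the unexercised 3-year fish they had 0.35 and 0.26, and without replicate 2 they had 0.19 and 0.07. With all libraries limma voom gave 0.47 and 0.10. hbaa2 had 1.73 (edgeR adjusted p = 0.206) without replicate 4.

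The difference of the exercise effect between the ages was tested in the same model, in which 0.00481% of genes were called. It was negative for all 4 members, at -1.19 (SE 0.84) for hbaa1, -1.03 (SE 1.02) for hbaa2, -1.48 (SE 0.88) for alas2 and -0.54 (SE 0.45) for hemgn. edgeR, DESeq2 and limma voom called none of the 4, and no edgeR p was below 0.05 before adjustment (lowest 0.109, alas2). Without replicate 2 of the exercised 1-year fish the value of hbaa2 was 0.02.

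Between the ages without exercise 0.967% of genes were called, 0.495% higher and 0.471% lower at 3 years, and 0 of the 4 members by edgeR, DESeq2 or limma voom, none with an unadjusted edgeR p below 0.05. All 4 overlapped between these groups, where 5.08% of genes had no overlap. The log2 difference, 3-year minus 1-year, was 0.82 (SE 0.60) for hbaa1, 0.07 (SE 0.73) for hbaa2, 0.41 (SE 0.62) for alas2 and 0.20 (SE 0.32) for hemgn. Without replicate 4 of the unexercised 3-year fish the last 3 turned to -0.88, -0.13 and -0.13, and hbaa1 stood at 0.30. Without replicate 5 of the unexercised 1-year fish the 4 values were 1.33, 0.82, 1.2 and 0.44.

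Between the ages with exercise 17.2% of genes were called, 9.73% higher and 7.43% lower at 3 years. The 4 members were all lower at 3 years, at -0.37 (SE 0.60) for hbaa1, -0.96 (SE 0.72) for hbaa2, -1.07 (SE 0.62, edgeR adjusted p = 0.245) for alas2 and -0.34 (SE 0.32) for hemgn. edgeR called 0 of the 4, with 0 at an unadjusted p below 0.05, as did DESeq2 and limma voom. With the exercised groups alone in the model, alas2 was called at -1.08 (adjusted p = 0.0377). alas2 was also the only member whose values did not overlap between these groups, where 9.13% of all genes had no overlap. Without replicate 2 of the exercised 1-year fish hbaa2 had 0.08 and hbaa1 -0.02. The comparisons share groups, so that exercised 1-year libraries stand in this one and in exercise at 1 year.

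With the exercise effect averaged over the ages, 19.7% of genes were called and 0 of the 4 members, 2 of which had an unadjusted p below 0.05. hbaa2 had 1.29 (SE 0.52, edgeR adjusted p = 0.0848) and hbaa1 0.89 (SE 0.42, edgeR adjusted p = 0.147). hbaa2 was called by DESeq2 (adjusted p = 0.0308) and limma voom (adjusted p = 0.0358), and by edgeR without unexercised 1-year replicate 5 (1.67) or unexercised 3-year replicate 4 (1.77). limma voom also called hbaa1 (adjusted p = 0.0486). With age averaged over exercise 20.3% of genes and 0 of the 4 members were called, none at an unadjusted edgeR p below 0.05 nor by DESeq2 or limma voom, and the values ran from -0.44 for hbaa2 to 0.23 for hbaa1.

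**Figure D2:**
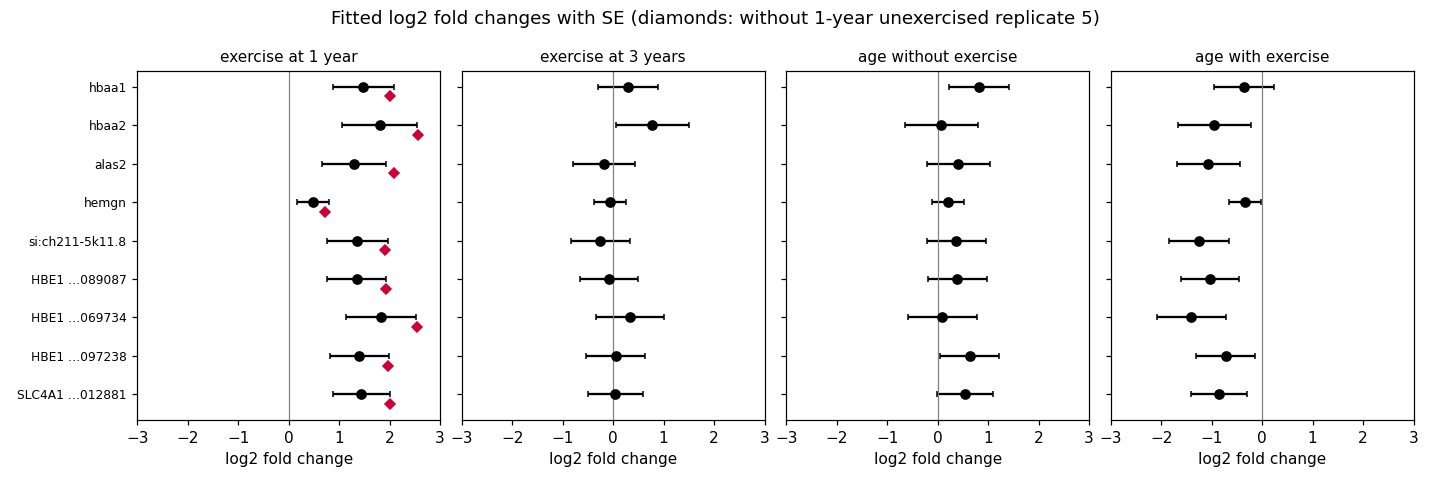
Fitted log2 fold changes (points) with SE (bars) of the 4 members and the 5 related rows that passed the filter, in 4 comparisons; row labels after an ellipsis are the last digits of the gene ID. Red diamonds in the first panel give the values without replicate 5 of the unexercised 1-year fish, where hbaa1 moved from 1.48 to 2.00 and alas2 from 1.29 to 2.09. Leaving out replicate 2 of the exercised 1-year fish instead lowered hbaa1, hbaa2 and hemgn, and those values are not drawn.

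The globin rows together were a small part of each library. The 2 alpha members and the 4 related globin rows that passed the filter held 0.0084% to 0.105% of the counts. Their sum was 76.6, 286.4, 126.4, 149.2 and 548.7 CPM in unexercised 1-year libraries and 411.8, 1214, 389.6, 679.6 and 497.1 CPM in exercised ones. In 3-year libraries it was 83.6, 642.4, 100.2, 635.8 and 152.9 CPM without and 421.8, 424.3, 313.9, 205.9 and 252.9 CPM with exercise. The unexercised groups spread the most, by 7.16 times at 1 year and 7.68 times at 3 years from the lowest to the highest library. The exercised groups spread by 3.12 and 2.06 times. On the log2 scale the sum was 7.54 ± 1.1, 9.18 ± 0.67, 7.79 ± 1.44 and 8.28 ± 0.46 (SD, n = 5) in unexercised 1-year, exercised 1-year, unexercised 3-year and exercised 3-year fish. The lowest library, unexercised 1-year replicate 1, held 2828 globin counts.

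Over the 20 libraries the sum spread by 15.9 times, and the share of single globin rows spread by less, though not in every group. Per length, the 3 alpha-type rows were 1.14 to 1.62 times the 3 beta-type rows in the 20 libraries, taking HBE1 as the beta type. HBE1 ENSDARG00000089087 held 23.6% to 31.7% of the globin level per length and HBE1 ENSDARG00000097238 5.17% to 7.60%. The share of HBE1 ENSDARG00000069734 ran from 4.17% to 15.7%. That of hbaa2 ran from 0.894% to 7.10%, and it spread by 3.27 times in exercised 1-year and 2.88 times in exercised 3-year libraries, more than the sum did there. hbaa1 held 13.1 ± 1.6% at 1 year without exercise and 13.3 ± 0.61% with it (SD, n = 5). At 3 years it held 15.7 ± 2.8% without exercise and 20.8 ± 3.8% with it (SD, n = 5). Its share was 12.5% to 14.1% in the exercised 1-year libraries and 17.1% to 26.8% in the exercised 3-year libraries, with no overlap. The share of si:ch211-5k11.8 went the other way, with 38.4 ± 3.0% in exercised 1-year and 31.5 ± 4.7% in exercised 3-year fish. These shares are a description, with no test.

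The ratio of hbaa1 to si:ch211-5k11.8 per length was 0.319 to 0.370 in exercised 1-year libraries and 0.550 to 1.12 in exercised 3-year libraries. Without exercise it was 0.284 to 0.356 at 1 year. In unexercised 3-year libraries it was 0.300, 0.352, 0.567, 0.582 and 0.367, so that replicates 3 and 4 lay in the range of the exercised 3-year libraries and the other 3 within the 1-year range. These libraries with a high ratio included one with a low globin sum (replicate 3, 100.2 CPM) and one with a high sum (replicate 4, 635.8 CPM). The ratio of HBE1 ENSDARG00000097238 to HBE1 ENSDARG00000089087 varied with it over the 20 libraries (Pearson r = 0.91, Spearman rho = 0.86, permutation p = 1e-05 for each, the smallest that 100000 permutations can give; adjusted p = 1.67e-05 and 2.04e-05 over 55 relations). Without the 2 libraries farthest from the median r was 0.83, and with group means removed 0.78. This relation was computed after the data had been seen, so its p-values are no independent test.

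A second pair of rows moved together in another way. The ratio of hbaa2 to hbaa1 per length ran from 0.058 in unexercised 3-year replicate 2 to 0.561 in exercised 1-year replicate 2, with ranges that overlapped between all 4 groups. The ratio of HBE1 ENSDARG00000069734 to HBE1 ENSDARG00000089087, which ran from 0.143 to 0.630, varied with it (Pearson r = 0.87, Spearman rho = 0.89, permutation p = 1e-05 for each, adjusted p = 1.67e-05 and 2.04e-05 over the same 55 relations). Without the 2 farthest libraries r was 0.82, and with group means removed 0.89. These relations were computed after the data had been seen. Other relations between ratios of globin rows were not run and are not among the 55. The permutations also ignored the groups. The p-values therefore describe these ratio relations and are no independent test of them. The rows compared share libraries and may share reads, and the part of read assignment or of sequence differences between fish in them was not tested.

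**Figure D3:**
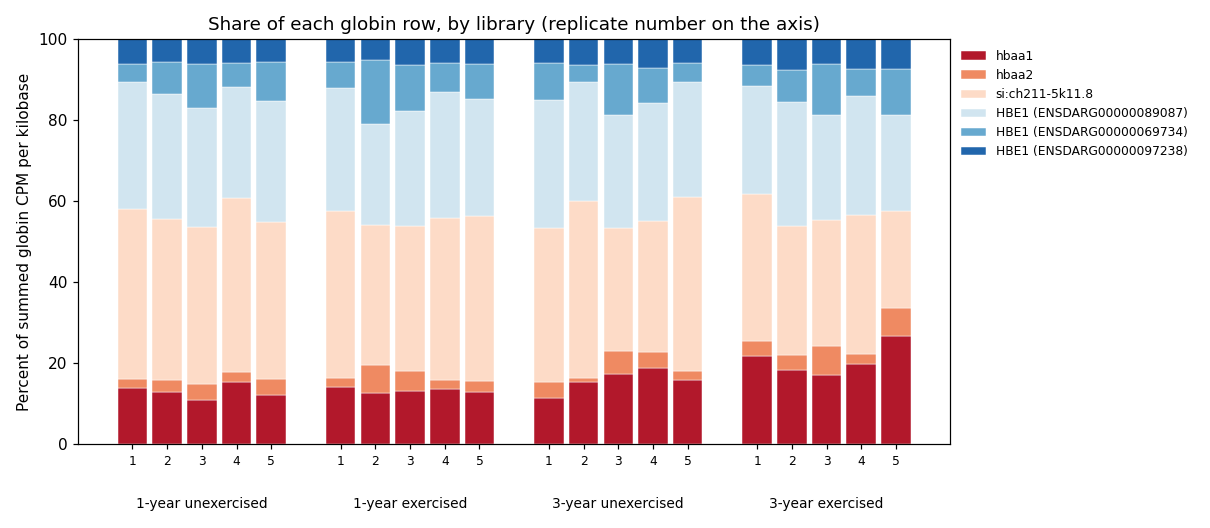
Stacked bars give, for each of the 20 libraries, the percent of the summed globin CPM per kilobase held by each of 6 globin rows; numbers under the bars are replicates. The dark red part, hbaa1, takes 12.5% to 14.1% in exercised 1-year and 17.1% to 26.8% in exercised 3-year libraries.

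The members and the related rows varied together from library to library. Over the 20 libraries all 36 pairs among the 9 rows that passed the filter had a Pearson r of 0.73 to 0.99 and a Spearman rho of 0.63 to 0.98 on log2(CPM + 1). The highest permutation p of a pair was 0.00022 for Pearson's r (adjusted p = 0.00031 over 55 relations) and 0.00347 for Spearman's rho (adjusted p = 0.00465). With the 2 libraries farthest from the median left out the lowest r was 0.60, and with group means removed it was 0.66, both for hbaa2 with si:ch211-5k11.8. alas2 followed HBE1 ENSDARG00000089087 with r = 0.98, hbaa1 with r = 0.93 and hemgn with r = 0.89. The values share their library and its scaling. The rows were chosen with results of these data known, and the permutations ignored the groups. The p-values therefore describe the pairs and are no independent test. The logarithm of the total count per library had r = 0.03 with the globin sum.

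alas2 kept close to a fixed proportion of the globins, at 2.83 to 5.40 CPM per 100 globin CPM over all libraries. Its group means were 4.29 ± 0.68 in unexercised 1-year, 4.53 ± 0.75 in exercised 1-year, 4.25 ± 0.86 in unexercised 3-year and 3.99 ± 0.65 in exercised 3-year fish (SD, n = 5), which differ by less than their SDs. SLC4A1 ENSDARG00000012881 likewise stood at 2.39 to 4.92 CPM per 100 globin CPM. hemgn did not keep such a proportion: it had 5.80 CPM per 100 globin CPM in the library of lowest globin sum and 1.14 in the library of the highest.

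By design the genes most like the mean of the 4 members were ranked by Pearson r over the 20 libraries after group means were removed, with no test. The closest outside the set was cahz, a carbonic anhydrase of red cells, with r = 0.97. The next were HBE1 ENSDARG00000097238 (0.97), si:ch211-103n10.5 (0.96), HBE1 ENSDARG00000089087 (0.95), HBE1 ENSDARG00000069734 (0.93), epb41b (0.92), EPOR (0.92), SEPTIN3 (0.92), si:ch211-5k11.8 (0.91) and NMT1 (0.91). epb41b belongs to the protein 4.1 family, which ties spectrin to the red cell membrane, and EPOR is the receptor of erythropoietin. cahz had 3.95, 16.7, 6.21, 7.58 and 29.1 CPM in unexercised and 20.3, 41.7, 20.4, 27.4 and 23.3 CPM in exercised 1-year libraries. In 3-year libraries it had 5.12, 27.7, 7.15, 53.5 and 7.72 CPM without exercise and 22.7, 23.1, 16.8, 12.8 and 12.6 CPM with it. As for hbaa1, alas2 and hemgn, unexercised 1-year replicate 5 and unexercised 3-year replicates 2 and 4 were the highest of their groups. Its highest library was unexercised 3-year replicate 4, while that of all 4 members was exercised 1-year replicate 2.

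**Figure D4:**
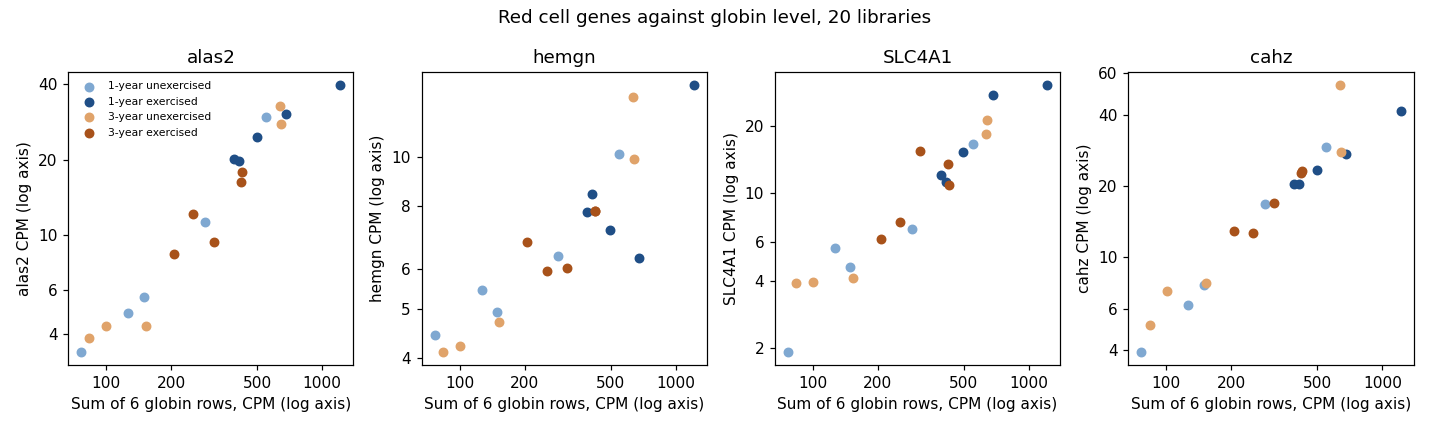
CPM of alas2, hemgn, SLC4A1 ENSDARG00000012881 and cahz against the summed CPM of the 6 globin rows, both on log axes, 1 point for each of 20 libraries, coloured by group. Values rise with the globin sum over the 20 libraries, and hemgn spans the narrowest range (4.12 to 13.9 CPM). Libraries of like globin sum can differ. hemgn had 6.30 CPM in exercised 1-year replicate 4 (679.6 globin CPM) and 13.1 CPM in unexercised 3-year replicate 4 (635.8 globin CPM). cahz had 53.5 CPM in the latter and 27.7 CPM in unexercised 3-year replicate 2 (642.4 globin CPM).

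Other red cell genes were read from lists drawn up for membrane, enzyme, haem, iron and transcription factor genes. For comparison with their counts, 15.5% of all genes tested were called for exercise at 1 year, 7.37% higher and 8.15% lower. In the list of the red cell membrane and its skeleton, 3 of 15 genes tested rose with exercise at 1 year and none fell, with a median of 0.81. They were kel, the Kell blood group protein, at 2.63 (SE 0.67, edgeR adjusted p = 0.0128), the actin-bundling protein dematin (DMTN) at 1.06 (SE 0.34, edgeR adjusted p = 0.0403) and the glucose transporter SLC2A1 (ENSDARG00000007412) at 0.97 (SE 0.20, edgeR adjusted p = 0.00356). kel went from 0.80 ± 1.06 to 5.05 ± 2.29 CPM (SD, n = 5). DMTN lost its call in 7 of the 20 fits without a library. At 1 year 0 of 8 red cell enzyme genes were called by edgeR, 2 had an unadjusted p below 0.05, and DESeq2 and limma voom each called 2. With exercise averaged over the ages, where 19.7% of all genes were called, edgeR called 2 of the 8 higher, BPGM and ca2. The call of ca2 was lost in 14 other settings. Between the ages with exercise, where 7.43% of all genes were lower, blvrb was lower at 3 years. It was also called lower for averaged age, where 20.3% of all genes were called.

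The genes of that membrane list varied in how closely they followed the members, from r = -0.16 to r = 0.92. The genes named next were picked after their values had been seen. The r with the mean of the members, group means removed, was 0.90 for the spectrin gene SPTB, 0.90 for the adducin gene add2, 0.86 for the ankyrin gene ANK1 ENSDARG00000059093, 0.82 for the water channel AQP1 ENSDARG00000023713 and 0.71 for kel. A second row of ANK1 (ENSDARG00000074777) had r = 0.25, and the protein 4.1 gene EPB41 (ENSDARG00000099283) had r = -0.15. RHAG, the Rh-associated glycoprotein, had r = -0.16. RHAG was also the 1 gene of the list that rose with age without exercise, by 0.96 (SE 0.20, edgeR adjusted p = 0.0283), from 76.9 ± 13.2 to 149.8 ± 26.2 CPM, a call lost in 6 of 20 fits without a library. Over all genes, 0.495% were called higher with age without exercise. In the age comparison with exercise, where 17.2% of all genes were called, edgeR called 0 of the 15, with 2 at an unadjusted p below 0.05. DESeq2 called 2 and limma voom 0.

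The list of haem synthesis held the genes besides alas2. With exercise at 1 year 8.15% of all genes fell and 7.37% rose. Of 11 genes of the list tested, 3 fell with exercise at 1 year and 1 rose, with a median of 0.24. Among them CPOX, coproporphyrinogen oxidase, fell by 0.80 on the log2 scale (SE 0.18, edgeR adjusted p = 0.00602) and ALAD, the second enzyme of the pathway, fell by 0.57 (SE 0.13, edgeR adjusted p = 0.00656). Both of these calls held in all 20 fits without a library. CLPX (ENSDARG00000067796), a mitochondrial protease subunit that acts on the first enzyme, rose by 0.39 (SE 0.12, edgeR adjusted p = 0.0378), a call lost in 6 of those fits. With exercise at 3 years edgeR, DESeq2 and limma voom called 0 of the 11, and 2 had an unadjusted p below 0.05 in edgeR. Between the ages with exercise, where 7.43% of all genes were lower, UROD and CLPX (ENSDARG00000067796) were lower at 3 years by 0.46 and 0.45 on the log2 scale. The r of the 11 genes with the mean of the members, group means removed, ran from -0.46 for ALAD and CPOX to 0.36 for a second CLPX row (ENSDARG00000029063). It was 0.35 for ALAS1, the housekeeping form of the first enzyme, and -0.13 for FECH, which inserts the iron. These genes were picked after their values had been seen. The summed level of the list had r = 0.46 and rho = 0.55 with the globin sum, and r = 0.32 without the 2 farthest libraries.

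Against 7.37% of all genes higher and 8.15% lower with exercise at 1 year, the list of iron and haem transport had 4 of 19 genes higher and none lower. Its median was 0.04. The 4 were the plasma iron carrier transferrin (tfa) at 3.13 (SE 0.77, edgeR adjusted p = 0.0106), SLC25A38 (ENSDARG00000059805), the mitochondrial carrier that supplies glycine for haem synthesis, at 1.52 (SE 0.48), the haem transporter SLC48A1 (ENSDARG00000026907) at 0.93 (SE 0.26) and the mitochondrial transporter ABCB10 at 0.67 (SE 0.21). Of these, tfa was called in each of the 20 fits that left out 1 library, and the others lost their call in 7, 4 and 8 of them. tfa also stands in the hepatocyte list. Between the ages with exercise 3 of the 19 were higher and 6 lower at 3 years, against 9.73% and 7.43% of all genes. The iron exporter SLC40A1 was higher by 0.89 (SE 0.19, edgeR adjusted p = 0.00662) and haem oxygenase HMOX1 by 1.09 (SE 0.24, edgeR adjusted p = 0.00686). ABCB6 (ENSDARG00000063297), a porphyrin transporter, was lower by 1.77 on the log2 scale (SE 0.30, edgeR adjusted p = 0.00189). A second row of ABCB6 (ENSDARG00000074254) went the other way and was the remaining gene called higher, a call lost in 8 other settings.

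With exercise at 1 year, where 7.37% of all genes rose and 8.15% fell, 1 of 12 erythroid transcription factor and receptor genes rose and 1 fell. Both were rows of LDB1, at 0.42 (ENSDARG00000103158, SE 0.14) and -0.90 (ENSDARG00000010137, SE 0.21). The first was lost in 11 of 20 fits without a library. gata1a, the master regulator of the red cell lineage, stood at 0.72 to 4.96 CPM over the libraries, and klf1, the erythroid Krüppel-like factor, at 0.10 to 1.34 CPM. The r of the 12 genes with the mean of the members, group means removed, ran from -0.28 for LDB1 ENSDARG00000010137 to 0.92 for EPOR. It was 0.87 for TAL1, 0.86 for klf1, 0.64 for gata1a, -0.07 for MYB and -0.11 for ZFPM1. These genes were picked after their values had been seen. NFE2 was higher by 1.41 (SE 0.45, edgeR adjusted p = 0.0371) in exercised 3-year than in exercised 1-year fish, a call lost in 6 fits without a library.

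Embryonic and larval globins were low or absent in the rows found under their own symbols. The list had 11 symbols, and its beta-type genes other than hbbe3 had no row under their own symbol. They could stand among the HBE1 rows. Of 7 rows found, hbae1.1 and hbae1.2 had no count in any library, and 1 row passed the filter, hbae4, at 0.38 to 5.15 CPM. Its mean was 1.42 ± 1.53 CPM in unexercised and 3.67 ± 1.03 CPM in exercised 1-year fish, with a log2 fold change of 1.36 (SE 0.63, edgeR adjusted p = 0.155). The summed level of the 7 rows had r = 0.87 and rho = 0.87 with the globin sum, and r = 0.87 with group means removed. Myoglobin (mb), the oxygen store of muscle, had 142.7 ± 56.9, 262.9 ± 55.7, 65.0 ± 34.2 and 99.5 ± 56.1 CPM in unexercised 1-year, exercised 1-year, unexercised 3-year and exercised 3-year fish. It was lower in exercised 3-year than in exercised 1-year fish by 1.4 on the log2 scale (SE 0.39, edgeR adjusted p = 0.0213), and the call was lost without exercised 3-year replicate 4 (adjusted p = 0.0513).

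Genes in several marker lists of other cells were called in the same comparisons. Over all genes tested, 7.37% were higher and 8.15% lower with exercise at 1 year. Between the ages with exercise 9.73% were higher and 7.43% lower at 3 years. With exercise at 1 year 11 of 14 hepatocyte genes were higher, with a median of 3.08, and their summed level was 1325 to 2230 CPM in unexercised and 1823 to 6405 CPM in exercised libraries. Of 15 endothelial genes 3 were higher, with 202.8 to 272.1 and 283.5 to 311.4 CPM, and of 13 keratinocyte genes 6 were higher, with 65735 to 86095 and 82447 to 119119 CPM. Of 19 fast skeletal muscle genes edgeR called 0 (median 0.34, 1 at an unadjusted p below 0.05), DESeq2 1 and limma voom 0. Of 9 thrombocyte genes edgeR, DESeq2 and limma voom called 0 (median 0.37, 0 at an unadjusted p below 0.05 in edgeR). Of 14 macrophage genes 1 was lower (median -0.17), and of 5 neutrophil, 4 B cell and 5 T cell genes edgeR called 0 (medians 0.17, -0.42 and -0.15, with 1, 0 and 1 at an unadjusted p below 0.05). DESeq2 called 1 neutrophil and 1 T cell gene and limma voom 1 T cell gene. Between the ages with exercise 10 of 14 hepatocyte genes were lower at 3 years (median -2.31), and 6 of 14 macrophage genes (median 1.07), 3 of 5 neutrophil, 2 of 4 B cell and 1 of 5 T cell genes were higher. In the same comparison 5 keratinocyte genes were lower and 1 higher, and 3 endothelial and 2 thrombocyte genes were higher. At 3 years the summed level of the muscle genes was 2870 to 7466 CPM in unexercised and 2758 to 20541 CPM in exercised libraries. Over the 20 libraries the globin sum had r = 0.32 and rho = 0.27 with the hepatocyte sum, 0.18 and 0.13 with the endothelial sum, 0.48 and 0.30 with the muscle sum and 0.55 and 0.44 with the keratinocyte sum. With the macrophage, neutrophil, B cell and T cell sums r was -0.31, -0.14, -0.32 and -0.40, and rho was -0.37, -0.19, -0.37 and -0.31. With group means removed r was 0.04, -0.03, 0.45 and 0.36 for the first 4 sums. For the last 4 it was -0.28, -0.22, -0.35 and -0.30. The red cell lists differed in how they followed the globin sum. The globin sum had r = 0.72 and rho = 0.72 with the red cell enzyme sum, 0.71 and 0.73 with the membrane sum and 0.42 and 0.36 with the iron and haem transport sum. Those r were 0.62, 0.70 and 0.11 with group means removed. With the erythroid transcription factor and receptor sum r was -0.47 and rho -0.41, and r was -0.09 with group means removed. That sum was 194.4 to 301.9 CPM in unexercised and 158.1 to 191.1 CPM in exercised 1-year libraries. Single genes of that list differed from its sum. Their r with the mean of the members, group means removed, ran from -0.28 (LDB1 ENSDARG00000010137) to 0.92 (EPOR). The part of these lists in the levels of the members was not tested.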

How the data were processed

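The deposited tables hold a whole-number count for each gene and library, used here unchanged, and RPKM values of the same libraries. Per the submitters' processing notes, the tools were bcl2fastq 1.8.4, featureCounts 1.4.6-p4 and STAR 2.4.1d, with GRCz10 as the build. Annotation and settings were not given in the sources used here. The deposited RPKM imply a gene length that varied by 22.0% (median coefficient of variation, 11397 genes) with own totals, and by 0.00379% when the 20 totals were applied in rotation from gene to gene, so they served only as an alternative and to recover gene lengths. The deposited RPKM were 0.558 to 1.79 times the values computed with the library's own total.

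A name table gave a symbol to 26269 of 32105 gene IDs. Lists were matched to symbols in capitals without their copy letter, a choice made after the table was read. No genome was used, and no sequences or coordinates are given. One edgeR 4.0.16 fit (R 4.3.3) with a mean per group covered all 20 libraries, after TMM scaling and filterByExpr, which left 20788 genes. Its robust quasi-likelihood test had 16 residual degrees of freedom, and Benjamini-Hochberg adjustment ran over all genes tested. The SE of a fold change was worked back from that test, as the size of the fold change over the square root of the F value. The labels give no batch, so the fit had no covariate. The model gave 7 comparisons: the exercise effect at each age, the age effect in each exercise state, the difference of the exercise effects, and both effects averaged. Levels are CPM on TMM-scaled library sizes, per kilobase where genes are compared. Correlations used log2(CPM + 1) and 100000 permutations and were added after the data were seen.

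Alternatives were RLE and upper-quartile scaling, library sizes without the globin rows, no filter, 1 CPM in 5 libraries, DESeq2 1.42.0, limma 3.58.1 voom with quality weights, limma-trend on log2(RPKM + 1) of the deposited RPKM, the compared groups alone and fits without 1 library each. RPKM recomputed with own totals was added after the data were seen. The edgeR test was tested on simulated data. The members and all gene lists were chosen with earlier results of these data known. Named genes were the members, up to 4 called genes of lowest p per list, the genes behind list counts of 5 or fewer and the 10 genes most like the members. Others are marked where named. One gene that this rule names is not reported here. Counts of PCR reads without molecular identifiers are not independent molecules.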

Additional observations from a re-analysis of the deposited data

Results flagged for a closer look

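A sample far from the other 4 of its group was found in 6 of 60 group values examined. The rule flags about 1 in 20 where values are independent and normally distributed. The values here are CPM and ratios without logarithm, from rows that vary together, so the count cannot be set against that rate. Replicate 2 of the exercised 1-year fish had 63.62 CPM of hbaa2, against 6.404 to 13.8 in the other 4 libraries. The same library had 163.9 CPM of HBE1 ENSDARG00000069734, against 21.3 to 40.26, and 13.87 CPM of hemgn, against 6.303 to 8.437. Replicate 4 of the unexercised 3-year fish had 18.46 CPM of hbaa2, against 2.372 to 4.136 in its group. Replicate 5 of the exercised 3-year fish had a ratio of hbaa1 to si:ch211-5k11.8 per length of 1.117, against 0.5497 to 0.6007 in the other 4. In that library the ratio of HBE1 ENSDARG00000097238 to HBE1 ENSDARG00000089087 was 0.3159, against 0.2353 to 0.2533.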

How the results depend on the processing

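No member was called by edgeR in any of the 7 comparisons, but other settings called some. At 1 year DESeq2 called 2 members and limma voom 1. With exercise averaged over the ages DESeq2 called 1 and limma voom 2, and for age with exercise 1 was called with the compared groups alone. Leaving out 1 library at a time, 0 to 3 members were called at 1 year and 0 to 1 for the averaged exercise effect. No paired analysis was possible because the labels give no replicate numbers that pair samples, and those used here only name the libraries. The differences of the summed globin level moved by less than the pooled SD in every setting run. That SD was larger than the log2 difference itself for exercise at 3 years (0.50, SD 1.07) and age without exercise (0.24, SD 1.28). In these comparisons a change of direction can pass this rule, so it does not show that the direction held.

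Some fold changes of members turned direction. At 3 years alas2 (main -0.18) had 0.47 with limma voom, 0.05 on the deposited RPKM and 0.19 on RPKM with own totals, and hemgn (main -0.07) had 0.10 with limma voom and 0.01 on RPKM with own totals. For age averaged over exercise hemgn (main -0.07) had 0.06 on the deposited RPKM and 0.03 with own totals. Over the 20 fits without a library, alas2 ran from -0.43 to 0.35 and hemgn from -0.22 to 0.26 for exercise at 3 years. For age without exercise hbaa2 ran from -0.88 to 0.82, alas2 from -0.13 to 1.2 and hemgn from -0.13 to 0.44. hbaa2 ran from -1.2 to 0.08 for age with exercise and from -1.78 to 0.02 for the difference of the exercise effect. For age averaged over exercise the ranges were -0.03 to 0.48 for hbaa1, -0.92 to 0.07 for hbaa2, -0.60 to 0.06 for alas2 and -0.24 to 0.04 for hemgn.

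The count of genes called moved more. On the deposited RPKM it was 382 for exercise at 1 year (main 3227), 15 at 3 years (275), 53 for age without exercise (201), 482 for age with exercise (3566), 0 for the difference (1), 1055 for averaged exercise (4097) and 1749 for averaged age (4218). With the compared groups alone it was 50 for exercise at 3 years, 129 for age without exercise and 1673 for age with exercise. DESeq2 called 1298 genes for exercise at 3 years, 842 for age without exercise and 498 for the difference, and limma voom 39, 933 and 2. For the difference RLE and upper-quartile scaling, the stricter filter and RPKM with own totals gave 2 each and no filter 0. Without a library the counts ran from 1909 to 3534 for exercise at 1 year, 42 to 390 at 3 years, 43 to 393 and 2174 to 4148 for age without and with exercise, and 0 to 39 for the difference. The cause was not tested.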
